A study of Mus musculus with 6 samples.

Results

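The genes of sterol and fatty acid synthesis were followed in Ba/F3, a murine pro-B line whose growth needs interleukin-3, after the SPAG9-JAK2 fusion protein was switched on in it. Of 30 genes chosen by name for their place in these pathways, 29 had a probe set with exactly 1 gene symbol (16 of 17 sterol synthesis genes, 8 fatty acid synthesis genes and 5 regulators), out of 18193 genes measured in the same way. Acat2 was not analysed here. Where a gene had several probe sets, the one with the highest mean over the arrays stood for it. For Hmgcs1, Fdft1, Hsd17b7 and Acly that probe set carries the maker's suffix x_at, for probes that may also read other RNAs. The probe set used for Lss carries a different suffix, s_at, which was not counted with these.

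All cells carried SPAG9-JAK2, a scaffold protein joined to the tyrosine kinase JAK2, brought in by the Retro-X Tet-On Advanced system, in which doxycycline turns the transgene on. Induced cells were grown with doxycycline at 500 ng/ml (3 arrays), and uninduced cells of the same line, called mock Ba/F3 in the labels, were grown without it (3 arrays). RNA was taken 48 hours later and read on Affymetrix 3′ expression arrays, giving a signal intensity on a linear scale for each probe set. No array held cells given doxycycline without the fusion, so an effect of the drug and of the fusion cannot be told apart. The sources used here do not say whether interleukin-3 was in the medium, or whether the line was 1 clone.

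Median signals lay between 46.3 and 63.8 on the 6 arrays. Uninduced replicate 1 stood apart from its group: over 10693 genes at or above the median level, the median absolute log2 difference was 0.37 and 0.34 between it and uninduced replicates 2 and 3, 0.11 between those 2, and 0.25 between it and induced replicate 1. Induced replicate 1 differed from induced replicates 2 and 3 by 0.27 and 0.24, against 0.15 between those 2. Results are therefore also given without uninduced replicate 1. The probe sets of Jak2 (signals of 1430, 1740 and 1600 in induced cells, against 1175, 3439 and 3081 in uninduced cells) and Spag9 (2219, 1667 and 1938 in induced cells, against 2222, 4702 and 4660 in uninduced cells) were not higher with doxycycline. The labels do not say whether the transgene holds the stretch these probe sets read, so they check nothing about it. Of 11 measured markers of the pro-B and B lineage, 10, among them Pax5, Ebf1, Rag1 and Vpreb1, stayed under a signal of 150 on every array, and Cd79b reached 424. Markers of macrophages and granulocytes summed to signals of 581 to 1302 in induced cells, against 1239 to 3406 in uninduced cells, and 8 of 10 had a lower mean in induced cells. Single signals of those 10 ran from 2.10 to 1674, and 3 of the 10 stayed under 150 on every array. The 3 measured erythroid markers summed to 3898 to 4831 in induced cells, against 2309 to 2379 in uninduced cells, most of it from Klf1. The other 2, Epor and Hba-a1, had a lower mean in induced cells. In RNA from whole cultures, fewer cells of a type and less RNA per cell cannot be told apart.

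Cells build cholesterol from acetyl-CoA through the mevalonate pathway, which makes isoprenoid units, joins them into squalene, closes squalene into lanosterol and trims lanosterol to cholesterol. Fatty acids are built from the same acetyl-CoA by carboxylation, repeated elongation and desaturation. The SREBP transcription factors switch on both sets of genes: SCAP carries them from the endoplasmic reticulum to the Golgi for cleavage when sterols are scarce, and the INSIG proteins hold them back when sterols are plentiful. Growing cells draw on both pathways for membranes.

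The promoters of these genes were searched for motifs, which had no part in choosing them. RefSeq promoter windows of GRCm38.p6, each from 250 bases before to 50 bases after a transcript start, were found for 24 of the 30 genes (32 windows). Fdps, Fdft1, Sqle, Scd1, Scd2 and Fads1 had none. Motifs were searched on both strands. CCAAT, the box bound by NF-Y, which works beside SREBP, was present in 20 of 32 windows (62.5%), against 37.4% of all 32851 windows. It was found in 13 of 14 sterol synthesis genes, all but Acat2, in 2 of 5 fatty acid synthesis genes and in 4 of 5 regulators. GGGCGG, the Sp1 box, was in 24 of 32 windows (75%), against 35.7% of all windows. Those 24 windows belonged to 20 genes. The E-box CACGTG was in 6 windows (18.8%), against 7.15% of all. These belonged to 5 genes, since the 2 windows of Scap overlap and hold the same site. The sterol regulatory element TCACNCCAC was in 1 window, that of Hmgcs1 (3.12%), against 1.24% of all, and the looser TCANNCCAC, which includes it, was in the windows of Hmgcs1 and Acly (6.25%), against 4.18% of all. These are matches of letters and not known binding sites.

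The 250 bases before the transcript start are shown for 4 genes: Hmgcs1, as the window with the element, Nsdhl and Ebp, the sterol synthesis genes that were higher on every induced array, and Srebf2, a regulator that was lower on every induced array. They lie at chr13:119690101-119690350 on the plus strand, chrX:72918271-72918520 on the plus strand, chrX:8193513-8193762 on the minus strand and chr15:82147019-82147268 on the plus strand. Each is written 5′ to 3′ towards the gene, and capitals mark CCAAT on either strand (read as CCAAT or ATTGG) and, in Hmgcs1, the element TCACCCCAC.
Hmgcs1: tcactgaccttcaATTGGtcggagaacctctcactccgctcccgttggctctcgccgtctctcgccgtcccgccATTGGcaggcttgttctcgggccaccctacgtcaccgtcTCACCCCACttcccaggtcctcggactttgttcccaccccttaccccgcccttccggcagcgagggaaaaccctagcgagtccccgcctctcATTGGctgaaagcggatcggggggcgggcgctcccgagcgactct
Nsdhl: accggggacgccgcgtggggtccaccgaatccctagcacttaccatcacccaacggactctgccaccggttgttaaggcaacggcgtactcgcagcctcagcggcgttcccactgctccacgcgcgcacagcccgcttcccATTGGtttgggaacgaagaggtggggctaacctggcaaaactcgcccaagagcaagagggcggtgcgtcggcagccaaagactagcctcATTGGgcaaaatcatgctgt
Ebp: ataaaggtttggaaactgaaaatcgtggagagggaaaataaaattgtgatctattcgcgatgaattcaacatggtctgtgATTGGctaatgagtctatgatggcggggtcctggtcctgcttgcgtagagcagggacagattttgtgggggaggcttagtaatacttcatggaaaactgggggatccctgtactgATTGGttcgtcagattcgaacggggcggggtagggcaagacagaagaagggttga
Srebf2: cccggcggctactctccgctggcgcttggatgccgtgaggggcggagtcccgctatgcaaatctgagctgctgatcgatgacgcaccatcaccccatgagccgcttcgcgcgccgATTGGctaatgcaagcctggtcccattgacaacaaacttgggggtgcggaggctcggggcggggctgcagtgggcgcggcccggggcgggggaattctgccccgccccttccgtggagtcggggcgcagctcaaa
In the stretches printed here Hmgcs1 held 3 CCAAT boxes, Nsdhl and Ebp 2 each and Srebf2 1, so the gene with the element and the genes without it all carried the box.

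None of the 29 genes passed an adjusted p of 0.05 between induced and uninduced cells in limma, where 0.187% of all genes did (34 of 18193). Before adjustment, p was under 0.05 for 2 genes with higher means in induced cells (Nsdhl and Ebp), against 7.14% of all genes, and for 3 with lower means (Insig2, Srebf2 and Scd2), against 10.3%, or 5 of 29 against 17.4% in both directions. The groups did not overlap for 3 higher (Nsdhl, Ebp and Fasn) and the same 3 lower genes, 6 of 29, against 24.1% of all genes (10.7% higher and 13.4% lower). The balance of directions over all genes depends on the scaling: it was 1942 higher and 2441 lower as deposited, and 2623 higher and 1438 lower with each array centred on its median. Both shares are close to those of all genes. Log2 fold changes, taken as mean log2(signal + 16) in induced minus that in uninduced cells, which understates the change of dim genes, ran from -0.84 to 0.55 with a median of 0.00, against a median of -0.06 over all genes. The 95% interval lay within a 2-fold change in either direction for 25 of the 29, all but Idi1, Lss, Insig2 and Scd2. With 3 arrays against 3, an exact permutation test of 1 gene cannot go below a p of 0.1, and since the labels speak of seeding in triplicate and of nothing further apart, the p-values cover the spread between these few cultures alone.

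**Figure D1:**
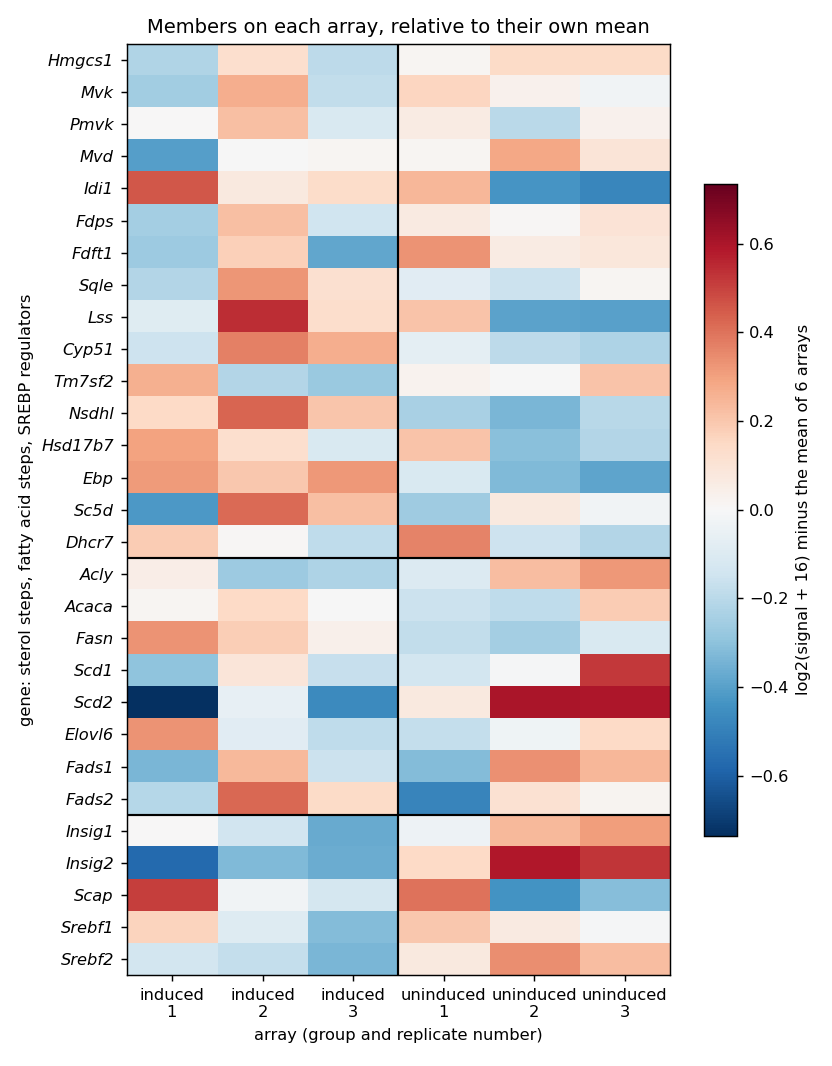
Each row is 1 of the 29 genes and each column 1 array, the 3 induced ones on the left; colour gives log2(signal + 16) minus the gene's mean over the 6 arrays. Insig2 and Scd2 are lower on all 3 induced arrays, and for Idi1 and Lss uninduced replicate 1 is above the gene's mean, unlike uninduced replicates 2 and 3.

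Of the 6 measured early genes, which make and join the isoprenoid units, 2 stood above 0 on the log2 scale, and the median was -0.11. Hmgcs1, the synthase that makes HMG-CoA, had signals of 5167, 6564 and 5266 in induced cells, against 6084, 6641 and 6657 in uninduced cells. Induced replicate 2 lay among the uninduced arrays. The log2 fold change was -0.20 with a 95% interval from -0.60 to 0.21. A probe set of Hmgcs1 nearly as bright gave -0.30 with groups apart. Its others gave -0.08, 0.14 and, for a dim one, -0.39, all with overlapping groups. Mvk, mevalonate kinase, and Pmvk, phosphomevalonate kinase, stood at -0.11 and 0.07 on the log2 scale, with overlapping groups. Mvd, the decarboxylase that yields isopentenyl diphosphate, had signals of 638, 850 and 861 in induced cells, against 860, 1043 and 912 in uninduced cells. The highest induced array and the lowest uninduced array were level, and the log2 fold change was -0.26 ± 0.19 (SE, n = 3 each). Fdps, which joins isoprenoid units into farnesyl diphosphate, stood at -0.12.

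Idi1, the isomerase between the isoprenoid units, was the early gene with the greatest difference. It had signals of 12836, 9822 and 10272 in induced cells, against 11056, 6914 and 6705 in uninduced cells. Only uninduced replicates 2 and 3 lay below the induced arrays. Its log2 fold change was 0.44 ± 0.25 (SE, n = 3 each; limma adjusted p of 0.409), and 0.68 ± 0.17 without uninduced replicate 1 (limma adjusted p of 0.0809). A second bright probe set of Idi1 gave 0.20, and its groups overlapped with and without that array. Ggps1, which extends farnesyl diphosphate in the isoprenoid side branch, had 828, 741 and 889 in induced cells, against 706, 457 and 440 in uninduced cells. Its groups were apart, and without uninduced replicate 1 it rose by 0.84 on the log2 scale with a limma adjusted p of 0.0395. Over the whole side branch, 7 of 13 measured genes had a positive log2 fold change, the median was 0.02, and none passed over all genes.

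The steps from farnesyl diphosphate to lanosterol gave mixed directions. Fdft1, squalene synthase, had signals of 2639, 3598 and 2441 in induced cells, against 4012, 3315 and 3380 in uninduced cells. Induced replicate 2 lay above 2 of the uninduced arrays, and the log2 fold change was -0.32 ± 0.21 (SE, n = 3 each). Sqle, the squalene epoxidase, a control point of the pathway, had 3036, 4417 and 3830 in induced cells, against 3324, 3163 and 3566 in uninduced cells. The lowest of all 6 values was that of an induced array, and the log2 fold change was 0.15 ± 0.19 (SE, n = 3 each). Lss, which closes the ring, had 959, 1500 and 1122 in induced cells, against 1187, 773 and 772 in uninduced cells. Uninduced replicate 1 lay among the induced arrays, and the log2 fold change was 0.39 overall and 0.59 without it. The direction of Lss also depends on the probe set, since another at a lower level gave -0.78.

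After lanosterol, 6 of 7 genes stood above 0 on the log2 scale, the median being 0.20, against 44.1% of all genes with a positive value. Dhcr7 among them stood at 0.00, and Cyp51, Sc5d and Dhcr7 turned sign under at least 1 alternative. Nsdhl, a dehydrogenase that removes the methyl groups at carbon C-4, had signals of 2657, 3234 and 2762 in induced cells, against 2028, 1898 and 2080 in uninduced cells. Every induced array lay above every uninduced one. Its means were 2884 ± 307 and 2002 ± 93.9 (SD, n = 3 each), a ratio of 1.43 on the scale of log2(signal + 16) with a 95% interval from 1.10 to 1.87, and the limma adjusted p was 0.191. Ebp, the isomerase that moves the ring's double bond, had 2177, 2009 and 2190 in induced cells, against 1620, 1394 and 1334 in uninduced cells. Here too the groups were apart, with uninduced replicate 1 the nearest to the induced arrays. The log2 fold change of Ebp was 0.55 ± 0.16 (SE, n = 3 each), with a limma adjusted p of 0.174, and 0.63 ± 0.13 without uninduced replicate 1, with a limma adjusted p of 0.0541. Nsdhl and Ebp each had 1 probe set, and both genes lie on the X chromosome.

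The other genes after lanosterol had overlapping groups. Cyp51, the lanosterol demethylase, had signals of 1318, 1904 and 1772 in induced cells, against 1400, 1286 and 1254 in uninduced cells, a log2 fold change of 0.32 ± 0.19 (SE, n = 3 each). Induced replicate 1 was the array among the uninduced ones. Hsd17b7, a ketoreductase of the demethylation, stood at 0.20 and Sc5d, a desaturase of the ring, at 0.14. Tm7sf2, a sterol reductase, stood at -0.15, the 1 negative value of the 7 genes. Dhcr7, which makes the last reduction to cholesterol, had 813, 716 and 623 in induced cells, against 921, 639 and 612 in uninduced cells, a log2 fold change of 0.00 with a 95% interval from -0.52 to 0.53.

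Taking the 16 sterol synthesis genes as a group, 10 had a positive log2 fold change and the median was 0.11. Their mean log2 level was 10.67, 10.92 and 10.70 on the induced arrays, against 10.77, 10.59 and 10.62 on the uninduced arrays. Induced replicate 2 was the highest array and uninduced replicate 1 lay among the induced ones, so the groups overlapped. Without induced replicate 2 the median was -0.01. A further list of genes in or near the pathway had 3 with a probe set. Msmo1, a methyl sterol oxidase, stood at -0.23, and Acat1, a thiolase that joins acetyl-CoA units, at 0.19. Hsd3b7, an enzyme of bile acid synthesis and not a step towards cholesterol, stood at 0.16. All 3 had overlapping groups. Msmo1 acts after lanosterol too, and its direction depends on the probe set, with 0.20 for the mean of its probe sets and 0.63 for the most variable one.

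**Figure D2:**
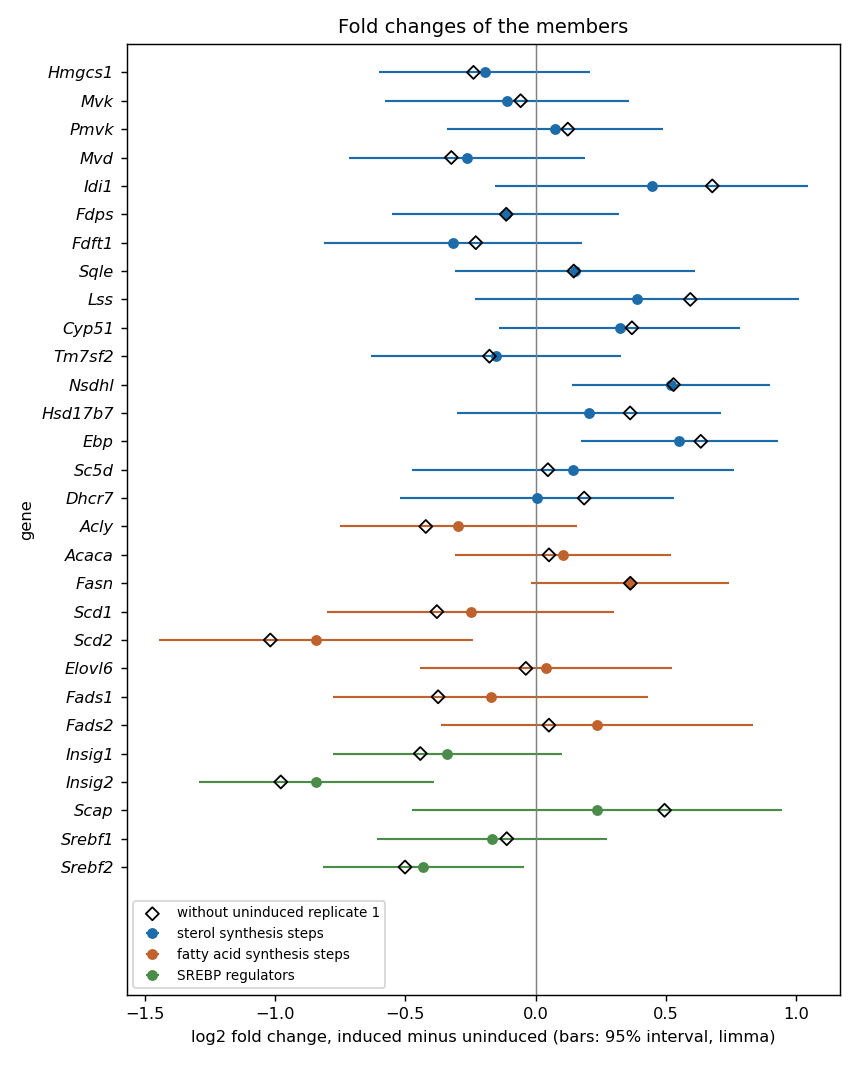
Points give each gene's log2 fold change, induced minus uninduced, with its 95% interval from limma over 3 arrays against 3; open diamonds give the value without uninduced replicate 1. Intervals of Nsdhl and Ebp lie above 0 and those of Scd2, Insig2 and Srebf2 below it, before adjustment over 18193 genes.

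Fatty acid synthesis genes went in both directions. Of 8 genes, 4 had a positive log2 fold change and the median was -0.07. It was -0.21 without uninduced replicate 1 and 0.03 without uninduced replicate 3. Scd1, for which no direction is given below, is among the negative genes. With a filter at the median level of all probe sets, which removes Scd1, the median of the list was 0.04. Scd2, a stearoyl-CoA desaturase that puts a double bond into saturated fatty acids, had signals of 11287, 18028 and 13568 in induced cells, against 19756, 28519 and 28361 in uninduced cells. All induced arrays lay below all uninduced ones, and uninduced replicate 1 was the nearest. Scd2 stood at -0.84 ± 0.25 on the log2 scale (SE, n = 3 each), with a limma adjusted p of 0.187, and -1.02 ± 0.23 without uninduced replicate 1, with a limma adjusted p of 0.0646. Its 2 other probe sets gave -1.15 and -1.11. The paralog Scd1, the main desaturase of liver and fat, had signals of 24.8, 37.3 and 28.5 in induced cells, against 29.7, 33.7 and 55.8 in uninduced cells. These lie within the span of 1.33 to 62.8 that the probe sets of 5 fat and liver genes, such as Alb and Adipoq, gave on these arrays, so no direction is given for Scd1.

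Fasn, the synthase that builds palmitate, was the 1 fatty acid gene higher on every induced array, with signals of 2757, 2482 and 2246 in induced cells, against 1928, 1838 and 2026 in uninduced cells. For Fasn the log2 fold change was 0.36 ± 0.16 (SE, n = 3 each), with a limma adjusted p of 0.302, and was also 0.36 without uninduced replicate 1. Acly, which makes cytosolic acetyl-CoA from citrate, had 6193, 4962 and 5097 in induced cells, against 5572, 7002 and 7459 in uninduced cells. The groups overlapped, and its log2 fold change of -0.30 came with a value of -0.02 from a second probe set nearly as bright. Acaca, the carboxylase that makes malonyl-CoA, stood at 0.10 and Elovl6, an elongase of palmitate, at 0.04.

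The desaturases of polyunsaturated fatty acids, Fads1 and Fads2, differed more between replicates than between groups. Fads1 had 2652, 3954 and 2996 in induced cells, against 2689, 4231 and 3966 in uninduced cells, and Fads2 had 1583, 2464 and 2028 in induced cells, against 1309, 1989 and 1860 in uninduced cells. In both genes replicate 1 was the lowest array of each group. The log2 fold changes were -0.17 ± 0.25 for Fads1 and 0.23 ± 0.25 for Fads2 (SE, n = 3 each). The mean log2 level of all 8 genes was 10.70, 10.89 and 10.68 on the induced arrays, against 10.62, 10.91 and 11.05 on the uninduced arrays, and the groups overlapped.

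**Figure D3:**
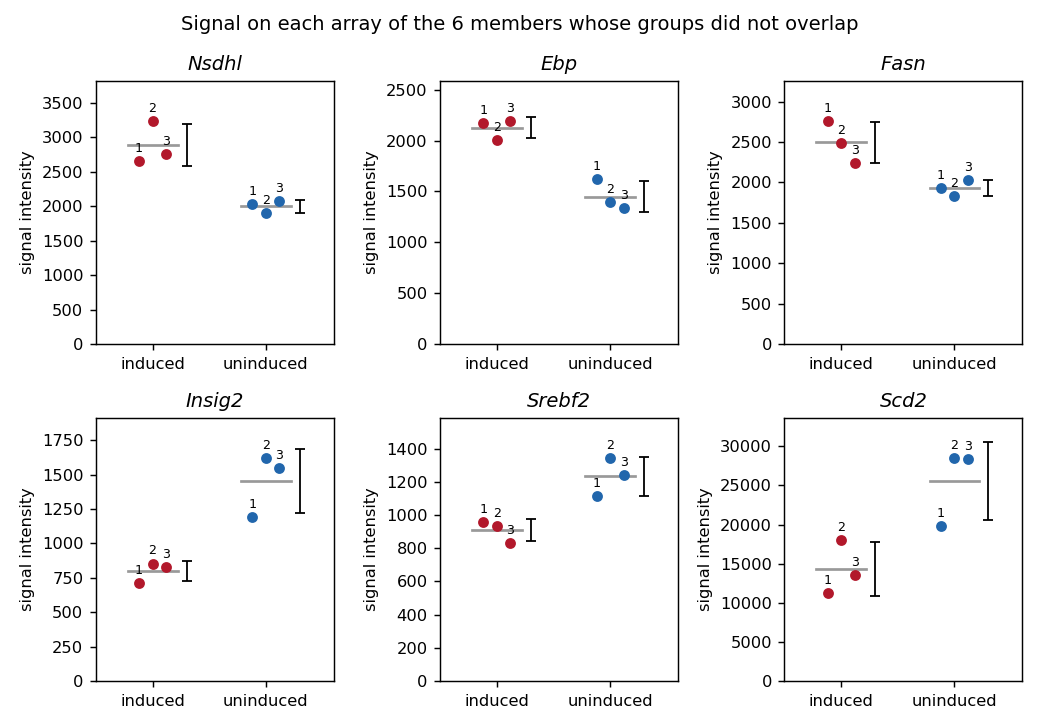
Points are the signal intensities of single arrays, numbered by replicate, with the group mean as a line and the SD (n = 3) as a bar. Nsdhl, Ebp and Fasn lie higher and Insig2, Srebf2 and Scd2 lower on all 3 induced arrays, with Scd2 the brightest of the 6 genes.

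Among the regulators, 4 of 5 stood below 0 on the log2 scale, and the median was -0.34. Insig2, one of the INSIG proteins that hold SREBP in the endoplasmic reticulum, had signals of 716, 854 and 828 in induced cells, against 1189, 1622 and 1550 in uninduced cells. All induced arrays lay below all uninduced arrays, and uninduced replicate 1 was the lowest of its group. Means were 799 ± 73.6 in induced cells and 1454 ± 232 in uninduced cells (SD, n = 3 each), a ratio of 0.558 on the scale of log2(signal + 16) with a 95% interval from 0.408 to 0.763. This is a log2 fold change of -0.84 ± 0.19 (SE, n = 3 each), with a limma adjusted p of 0.132. Without uninduced replicate 1 Insig2 fell by 0.98 ± 0.15 on the log2 scale with a limma adjusted p of 0.0318. It was the 1 member of 29 past the threshold in that comparison, where 7.99% of all genes passed and 4.77% did so on the lower side. It also passed with a trended and robust variance (adjusted p of 0.0366 in limma), where 3.02% of all genes did, and without both arrays numbered 1 (0.0424), where 8.12% did. Its 2 other probe sets had signals of 426, 310 and 436 and of 581, 545 and 647 in induced cells, against 611, 1029 and 910 and 1011, 1800 and 1640 in uninduced cells. In all 3 probe sets the groups were apart, with log2 fold changes from -1.27 to -0.84.

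Insig1, the other INSIG gene and itself a target of SREBP, overlapped between the groups, with 1296, 1173 and 1000 in induced cells, against 1260, 1533 and 1605 in uninduced cells. Its log2 fold change was -0.34 ± 0.18 (SE, n = 3 each). Srebf2, which encodes SREBP2, the factor most tied to sterol genes, had 959, 934 and 834 in induced cells, against 1112, 1344 and 1240 in uninduced cells. The groups were apart, and the log2 fold change was -0.43 ± 0.16 (SE, n = 3 each), with a limma adjusted p of 0.245. A second Srebf2 probe set gave -0.57 with overlapping groups. Srebf1, which encodes the SREBP1 forms tied to fatty acid genes, had 2461, 2059 and 1756 in induced cells, against 2520, 2298 and 2183 in uninduced cells, a log2 fold change of -0.17 with a 95% interval from -0.61 to 0.28. Scap, the escort protein, had 1590, 1091 and 1016 in induced cells, against 1475, 817 and 891 in uninduced cells, and both arrays numbered 1 were the highest of their group. The log2 fold change of Scap was 0.23, and 0.49 without uninduced replicate 1.

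Genes that process or degrade SREBP and its partners were measured for 12 of 13 listed, of which 8 had a negative log2 fold change and none passed over all genes. Mbtps1, the site-1 protease that makes the first cut, had 1777, 1395 and 1442 in induced cells, against 1949, 1874 and 2038 in uninduced cells, and Erlin1, which takes part in INSIG-linked degradation, had 1061, 1005 and 994 in induced cells, against 1237, 1508 and 1424 in uninduced cells. Both were lower on every induced array, with log2 fold changes of -0.35 and -0.44. So was Mbtps2, the site-2 protease, at -0.30, while Ube2g2, a ubiquitin-conjugating enzyme, and Pgrmc1, a sterol-linked membrane protein, were higher on every induced array, at 0.21 and 0.20. For Pgrmc1 the groups almost met, with 4021 as the lowest induced signal and 4011 as the highest uninduced one. Mbtps2, Ube2g2 and Pgrmc1 were chosen after their values were seen. Groups were thus apart for 2 higher and 3 lower genes of the 12, against 10.7% and 13.4% of all genes. Sec24a and Sec23a, coat proteins of the vesicles that leave the endoplasmic reticulum, stood at -0.87 and -0.56. For both, uninduced replicate 1 (1455 for Sec24a, 1114 for Sec23a) lay among the induced arrays, and without it Sec24a fell by 1.27 and Sec23a fell by 0.80 on the log2 scale with limma adjusted p of 0.0323 and 0.0404.

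Uninduced replicate 1 was nearer to the mean of the induced arrays than to that of uninduced replicates 2 and 3 for 14 of the 29 genes, against 55.6% of all genes. By group, these were 7 of 16 sterol synthesis genes, 5 of 8 fatty acid synthesis genes and 2 of 5 regulators. Without that array the groups were apart for 16 of 29 genes, 8 higher and 8 lower, against 45.3% of all genes (21.3% higher and 24% lower). The 5 members higher only in that setting were Idi1, Lss, Cyp51, Hsd17b7 and Scap, and the 5 lower only there were Hmgcs1, Mvd, Insig1, Acly and Fads1.

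Of 11 measured genes that take up, move and store sterol, 10 had a negative log2 fold change, with a median of -0.27, and none passed over all genes. Nceh1, a cholesteryl ester hydrolase, had signals of 297, 259 and 274 in induced cells, against 519, 480 and 454 in uninduced cells. The groups were apart, and uninduced replicate 1 was the highest array. The log2 fold change of Nceh1 was -0.77 ± 0.15 (SE, n = 3 each), with a limma adjusted p of 0.109, and -0.33 as the mean of its probe sets (limma adjusted p of 0.396). It was -0.72 without uninduced replicate 1, with a limma adjusted p of 0.0467. Lipa, the lysosomal acid lipase that frees cholesterol from esters, had 417, 464 and 554 in induced cells, against 589, 1004 and 1079 in uninduced cells, and stood at -0.84. Npc2 and Npc1, which carry cholesterol out of the lysosome, stood at -0.68 and -0.60. Without uninduced replicate 1, 3 of the 11 fell (Nceh1, Lipa and Npc2), in a setting where 4.77% of all genes fell. Npc2 had an adjusted p of 0.0572 in limma without both arrays numbered 1. Of the macrophage and granulocyte markers given above, 8 of 10 had lower means in induced cells and 0 passed, the summed signals of the groups overlapped, and their part in these values was not tested.

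Among 9 genes of sterol efflux and the liver X receptors, 4 stood above 0 on the log2 scale and the median was -0.09. Rxrb, a partner receptor, and Abcg1, a sterol exporter, stood at -0.62 and -0.77 with groups apart. Of 21 further genes of fatty acid supply and elongation, 9 were positive, with a median of -0.09. Hacd3, Mcat and Elovl1, a dehydratase of elongation, the transferase of mitochondrial fatty acid synthesis and an elongase of long chains, stood at 0.49, 0.51 and 0.43, and Acsl4, which activates arachidonic acid, at -0.56. Of 21 genes of glycerolipid and phospholipid synthesis, 8 were positive, with a median of -0.14. Lpin1, a phosphatidate phosphatase, had 281, 318 and 223 in induced cells, against 584, 1569 and 1458 in uninduced cells. All induced arrays lay below all uninduced ones, and the log2 fold change of -1.96 ± 0.40 (SE, n = 3 each; limma adjusted p of 0.116) was -2.41 without uninduced replicate 1, where it fell with a limma adjusted p of 0.0133. Cept1 and Pcyt1a, of phosphatidylcholine synthesis, stood at -0.66 and -0.68, and Chpt1, of the same route, at 0.91. Of 22 fatty acid oxidation genes 13 were positive with a median of 0.08, and Acadl, the long-chain dehydrogenase, stood at 0.43. None of the genes in these 4 lists passed over all genes.

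**Figure D4:**
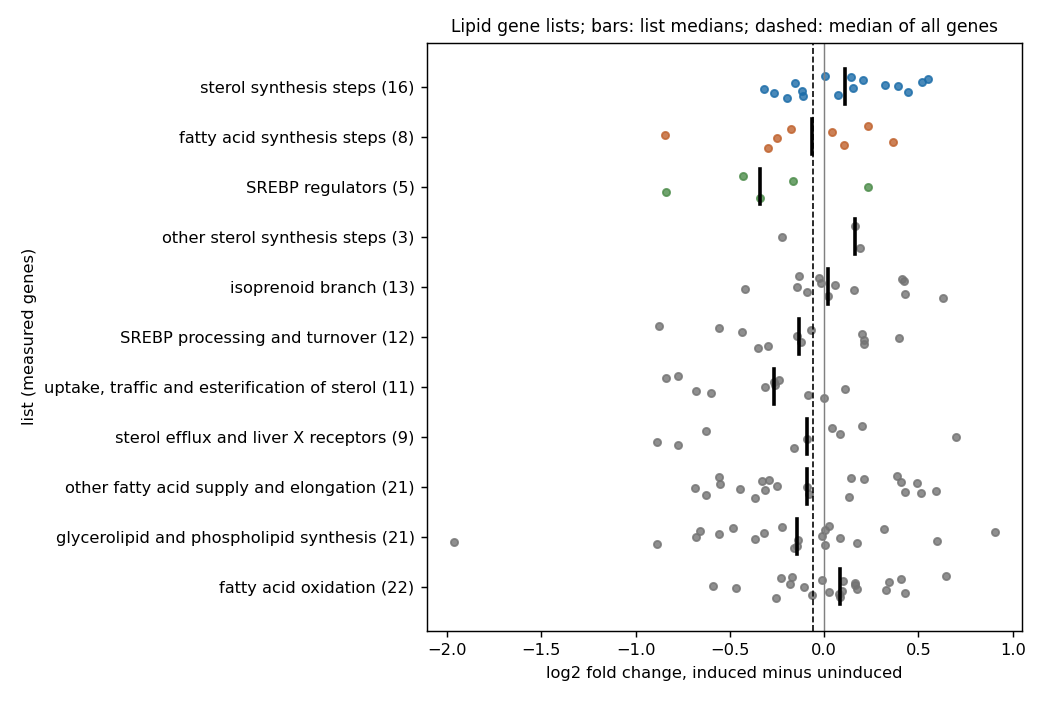
Each point is the log2 fold change, induced minus uninduced, of 1 gene, by list, with the number of measured genes in brackets; bars are list medians and the dashed line is the median of all 18193 genes (-0.06). Sterol synthesis has its median at 0.11, the regulators at -0.34 and the uptake list at -0.27; the point far to the left is Lpin1.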

How the data were processed

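Signal intensities of 6 arrays were deposited by the authors on a linear scale, and Affymetrix Expression Console 1.4.1 made them, per the submitters' processing notes; how probes were summarised is not given there. In the values each array has a mean of 500 after trimming 2% at each end. Of 45101 probe sets, 64 controls, 932 with several symbols and 9160 with none were left out; the platform's symbols date from its own annotation.

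The deposited intensities were turned into log2(signal + 16) and not normalized again, and 1 probe set per gene (the brightest by mean) was compared with limma 3.58.1 in R 4.3.3 (lmFit and eBayes with 4 residual degrees of freedom, p-values two-sided and adjusted by Benjamini-Hochberg over 18193 genes, threshold of 0.05). The design had no replicate block. Lists are described by counts and medians, without a test. The procedure was tested on simulated data in which arrays were drawn independently. No simulated array stood apart as uninduced replicate 1 does, so the simulation does not cover that feature. Plots were drawn with matplotlib 3.10.9.

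The 30 genes, the other lists, the motifs and the alternatives were chosen with earlier results of these data known. The text names all 30, Jak2, Spag9 and up to 4 genes of smallest p in each other list. Mbtps2, Ube2g2 and Pgrmc1 are named besides these, and markers serve as checks. Alternatives varied the block, scaling, filter, probe set, pseudocount, variance model and arrays. Precision is limited by there being 3 arrays a group. No detection calls were used.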

Additional observations from a re-analysis of the deposited data

How the results depend on the processing

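None of the 29 genes passed the threshold in limma under 15 of the 18 alternatives; the exception in the other 3 was Insig2, with the count of regulators past it at 1 under the trended and robust variance (adjusted p of 0.0366, 3.02% of all genes), without uninduced replicate 1, and without both arrays numbered 1 (adjusted p of 0.0424, 8.12% of all genes). The last setting, and averaging uninduced replicates 2 and 3 into 1 sample, were chosen after seeing the data. Over all alternatives the adjusted p of Insig2 ran from 0.0318 to 0.379, that of Ebp from 0.0541 to 0.455 and that of Scd2 from 0.0619 to 0.452. Leaving out single arrays moved the count of regulators past the threshold between 0 and 1. The direction held for 18 of the 29 under all 18 alternatives and turned under at least 1 for the other 11 (Mvk, Pmvk, Lss, Cyp51, Sc5d, Dhcr7, Acly, Acaca, Scd1, Elovl6 and Fads1), none of which was past the threshold there. The median log2 fold change of the sterol synthesis genes turned to -0.0746 with the most variable probe set. It lay between -0.00853 and 0.134 when single arrays were left out. The fatty acid median turned to 0.279 with the most variable probe set and to 0.0343 without uninduced replicate 3. It was 0.0639 with the mean of probe sets and 0.0025 with uninduced replicates 2 and 3 averaged. With the filter at the median it was 0.039. The regulators' median was -0.528 without both arrays numbered 1. The count of 34 over all genes was 342 with the filter at the median, 19 with the most variable probe set, 255 with a pseudocount of 64, 550 with the trended and robust variance and 1477 without both arrays numbered 1. In limma it was 0 with a pseudocount of 1 (2807 at an unadjusted p under 0.05), 0 with uninduced replicates 2 and 3 averaged (1991 unadjusted) and, with single arrays left out, between 0 and 1453 (12 without induced replicate 1, 0 without induced replicate 2, 1 without induced replicate 3, 1453 without uninduced replicate 1, and 0 without uninduced replicate 2 or 3, where 2224, 2093 and 2006 genes passed unadjusted for the 3 zero counts). Median centring gave 24 higher and 6 lower genes, against 21 and 13 as reported. Blocking on replicate number (the replicate block) gave 0 in limma (3269 unadjusted), and no member passed. Deviations of same-numbered arrays from their group means correlated at 0.17, 0.08 and 0.08, and those of differently numbered arrays at -0.12 to 0.06. The highest value was that of the arrays numbered 1, and a shift shared by these was not tested. The labels state no pairing, so the main fit had no block. The causes were not tested. Scd1 had no value with the filter at the median, which removes it.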

Other observations

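Of the 29 genes, 17 had several probe sets no dimmer than the median of all probe sets, and in 9 of them these probe sets differed in sign. Lss gave 0.39 with the brightest, 0.45 with the dimmest and -0.78 with the third, and in both of the dimmer ones the groups did not overlap. Hsd17b7 gave 0.20 with the brightest and 0.90 with another whose groups did not overlap. Elovl6 gave 0.04 with the brightest and 0.52 with the next, again with groups apart, unlike those of its brightest probe set. Mvd stood at -0.26 with the probe set used and at -0.65 with one nearly as bright, whose groups did not overlap, and Fdft1 at -0.32 and -0.53. Insig2, Scd2 and Srebf2 had the same sign in all of theirs.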
